A study of Mus musculus with 6 samples.

Results

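The cells described here were sought as macrophages of the mouse lung that express complement C1q, the kind usually called interstitial macrophages. They were selected on their measured RNA: a barcode (the tag shared by all molecules of one droplet) was a member with at least 5 unique molecular identifiers (UMIs, single RNA molecules) of C1qa, C1qb and C1qc together, no UMI of Atp6v0d2, Cd79a or Cd3e, and fewer than 10 of Chil3. It also needed at least 1000 UMIs, at least 500 genes and at most 10% of UMIs in mitochondrial genes. Of 25704 barcodes that passed these last limits in 6 libraries, 86 were members. The mice carried a human CTLA4 knock-in (hCTLA4, C57BL/6 background), were male and 12 weeks old, and all received bleomycin, 1.25 U per kg of body weight in 2 doses 2 weeks apart, which injures the lung and leaves fibrosis. The 3 IgG1 mice were then injected with an isotype control antibody and the 3 ipilimumab mice with ipilimumab, an antibody to human CTLA4, at 5 mg per kg from day 21 after the second dose, with 2 injections per week for 4.5 weeks. The right lung of each mouse was dissociated and gave 1 library of 10x Genomics 3' RNA, with 37666042 to 48612412 UMIs, and no group without bleomycin was analysed here. The question was whether these macrophages differed in number or in expression between the treatments.

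C1q is the recognition protein of the classical complement pathway. It is built from A, B and C chains, each from a gene of its own, and in tissues it is made largely by macrophages, where it also tags dying cells and debris for uptake. Interstitial macrophages lie around airways, vessels and nerves and are distinct from the alveolar macrophages of the air space. In the mouse lung they are commonly divided into a Lyve1- and Folr2-expressing set near vessels and a set rich in MHC class II and Cx3cr1, the fractalkine receptor. CTLA4 on T cells binds CD80 and CD86 on antigen-presenting cells such as macrophages.

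The 3 C1q genes lie together on the minus strand of chromosome 4 (GRCm38): C1qb at 136880129-136886187, C1qc at 136889804-136893065 and C1qa at 136895917-136898803. The promoters of C1qb and C1qc are shown because C1q RNA defines these cells. The gene coordinates are those of GENCODE, and the windows run from 250 bases before to 50 after the RefSeq start of the gene (GRCm38.p6), which differs from the GENCODE start, C1qb at chr4:136886151-136886450 and C1qc at chr4:136892865-136893164, each read 5′ to 3′ on the minus strand. Capitals mark GAGGAA, a core bound by ETS factors such as PU.1, searched on both strands (TTCCTC is GAGGAA on the other strand).
C1qb: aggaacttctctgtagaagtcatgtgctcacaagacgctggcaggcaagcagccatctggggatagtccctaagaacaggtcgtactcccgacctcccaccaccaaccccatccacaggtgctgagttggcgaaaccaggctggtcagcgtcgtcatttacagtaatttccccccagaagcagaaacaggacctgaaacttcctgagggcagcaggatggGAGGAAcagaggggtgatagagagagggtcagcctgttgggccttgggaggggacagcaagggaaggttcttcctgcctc
C1qc: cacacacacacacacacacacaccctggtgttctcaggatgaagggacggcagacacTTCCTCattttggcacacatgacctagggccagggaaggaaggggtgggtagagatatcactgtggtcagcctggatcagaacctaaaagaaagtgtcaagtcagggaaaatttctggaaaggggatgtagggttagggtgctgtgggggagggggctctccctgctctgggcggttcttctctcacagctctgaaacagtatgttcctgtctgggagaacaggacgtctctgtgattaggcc
The C1qb and C1qc windows held 1 GAGGAA each. Of 32851 promoters of this length, 28.3% held GAGGAA, so a match in these windows is a description of the letters and not a mapped site.

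The label was checked against 6 markers, of which the rule had used the 3 C1q genes. Apoe, a lipid carrier made by many macrophages, was found in 66 of 86 members (76.7%), Ms4a7, a membrane protein of tissue macrophages, in 57 (66.3%) and Pf4, a chemokine shared with platelets, in 52 (60.5%). In 9196 B cells (barcodes with at least 2 Cd79a UMIs), which should lack these genes, the shares were 30.6% for Apoe, 0.217% for Ms4a7 and 0.0652% for Pf4. Apoe was found in 10.5% to 18.6% of the alveolar macrophages of each mouse, and the source of its UMIs in B cells was not tested. For Ms4a7 and Pf4 the shares in members stood far above those in B cells. The platelet gene Ppbp had no UMI in any member. Apoe, Ms4a7 and Pf4 were all present in 41 members, and 11 members had none of them. Csf1r, the receptor for the growth factor of macrophages, was found in 89.5%, Mrc1 in 80.2%, Adgre1 (F4/80) in 79.1% and Trem2 in 65.1% of members. Of the markers of alveolar macrophages, Siglecf was in 2 of 86 members and in 53.5% to 63.1% of the alveolar macrophages of each mouse. Marco was in 0 of 86, but in only 9.90% to 16.4% of alveolar macrophages. Ear2, found in 94.7% to 99.4% of alveolar macrophages, was in 17 of 86 members (19.8%), and in 4.35% of B cells. The monocyte gene Ly6c2 was in 1 member, whereas Ccr2, which recently arrived monocyte-derived cells keep, was in 53.5%. Mertk, a receptor for dying cells often used to define lung macrophages, had a mean level of only 46.0 ± 28.5 CPM (UMIs per 1000000 UMIs of the summed cells, SD over 6 mice) in members, against 812 CPM in alveolar macrophages. Lyve1 was found in 2 members, and these were the 2 members with the highest summed UMIs over 10 endothelial markers (81 and 310 UMIs). By these markers most members were C1q-expressing tissue macrophages. The 11 members with none of Apoe, Ms4a7 and Pf4 were not placed by those markers, and some members described below also carried RNA of other cell types. The place of the members in the lung was not measured, so all 86 are called C1q macrophages here.

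Members near the limits of the rule differed from the typical member. In 2 members the C1q sum was 5 to 6 and in 9 it was 7 to 9, while 9 barcodes with a sum of 3 to 4 were just outside, of which 2 had an Ms4a7 UMI. On the other side, 66 of 86 members had at least 20 C1q UMIs and 55 had at least 50. A further 26 barcodes were left out for Atp6v0d2, a gene of alveolar macrophages and osteoclasts, of which 2 had a single UMI. The rule left out 13 barcodes with a Cd79a UMI and 5 with a Cd3e UMI, whose median totals of 23154 and 33249 UMIs were above the members' median of 11917. No member barcode was found as a member in a second library.

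Members fell into 2 ranges of depth with nothing between them. Of the 86, 69 had 6274 to 44991 UMIs and 17 had 1005 to 2971 UMIs. Of these 17, 14 came from ipilimumab replicate 1, and IgG1 replicates 1 and 2 and ipilimumab replicate 3 gave 1 each. Ipilimumab replicate 1 stood apart as a whole library: it had 22056 barcodes with at least 100 UMIs, where the others had 4834 to 6230, and 1618 passing barcodes with fewer than 3000 UMIs, where the others had 113 to 242. Its 14 shallow members had C1qa, C1qb and C1qc in every case and Apoe in 13, but their MHC class II level was 5343 CPM, against 39063 CPM in its 11 deeper members. Their level of dividing-cell genes was 6335 CPM against 475 CPM, with Mki67 and Top2a in 8 members each. At least 2 of 11 T cell genes were present in 10 of the 14, such as Lef1 in 7 and Trbc2 in 6, against 1 of the 11 deeper members, and in 43.6% of all shallow passing barcodes of this library. The part of these barcodes in the results below was not tested directly, so results are also given for members with at least 3000 UMIs, a limit chosen after the gap was seen.

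C1q macrophages were under 0.5% of the barcodes in every mouse. They numbered 14 of 4530 passing barcodes (0.309%, 95% Wilson interval 0.184 to 0.518), 18 of 4320 (0.417%, 0.264 to 0.658) and 4 of 3344 (0.120%, 0.0465 to 0.307) in the IgG1 mice. In the ipilimumab mice they numbered 25 of 5170 (0.484%, 0.328 to 0.713), 6 of 4160 (0.144%, 0.0661 to 0.314) and 19 of 4180 (0.455%, 0.291 to 0.709). Each group thus had a mouse with few of these cells, and the groups overlapped. The intervals cover counting error only. The mean was 0.282% ± 0.150 (SD) with IgG1 and 0.361% ± 0.188 with ipilimumab, a difference of 0.0790 percentage points that was smaller than the spread between mice (exact two-sided permutation test, p = 0.5, where 3 mice against 3 cannot go below 0.1). With at least 3000 UMIs the means were 0.280% and 0.307% (exact permutation p = 0.7). Without IgG1 replicate 3, which held 4 members, the difference was -0.00208 points. Median UMIs per member were 9807.5, 11152 and 17982.5 in the IgG1 mice and 2383, 13458.5 and 14830 in the ipilimumab mice, and did not separate the groups (exact permutation p = 0.7).

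**Figure D1:**
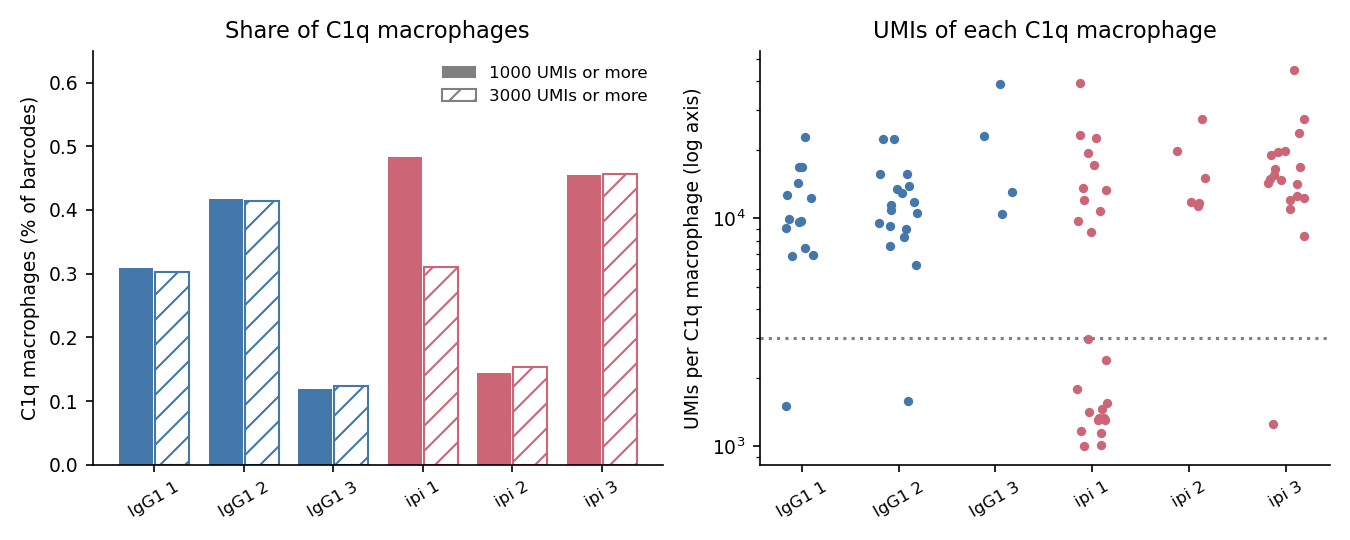
Left, share of C1q macrophages (%) among barcodes in each IgG1 and ipilimumab (ipi) mouse, for barcodes with at least 1000 UMIs (filled bars) and at least 3000 UMIs (hatched bars). Right, UMIs of each C1q macrophage on a log axis, where points are members and the dotted line is 3000 UMIs: no member lies between 2971 and 6274 UMIs, and 14 of the 17 below the line are from ipilimumab replicate 1.

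Beside alveolar macrophages of the same libraries (3020 barcodes with at least 1 Atp6v0d2 and 10 Chil3 UMIs), C1q macrophages were rich in antigen presentation RNA and poor in lysosomal RNA. Levels are CPM of UMIs summed over the cells of a mouse, as a mean over 6 mice, and since members were picked by measured genes these contrasts carry no test. Each UMI marks 1 molecule at its 3' end, so levels do not grow with gene length. By level the leading genes were Cd74, the invariant chain of MHC class II (19548 ± 5463 CPM, SD), Tmsb4x (17122), Malat1 (12966), Gm42418 (12434), Lyz2 (10156), Fth1 (10025), H2-Eb1 (8351), H2-Aa (7882), Actb (7149.7) and H2-Ab1 (6544). Cd74 in alveolar macrophages was 817 CPM and H2-Eb1 137 CPM. Gm42418 overlaps a ribosomal RNA gene, so its reads are uncertain. Among genes of at least 100 CPM, the largest ratios to alveolar macrophages belonged to chemokines, C1q and a few others. Cxcl13, which draws B cells, was at 617 ± 869 CPM (SD) with no UMI in alveolar macrophages, and Ccl8 at 1516 ± 3326 CPM against 4 UMIs in all of them. The Ccl8 mean rests on ipilimumab replicate 2, at 8297 CPM, beside 0 to 468 CPM in the other 5 mice. That mouse also had the highest Cxcl13 level, with 223 of its 226 Cxcl13 UMIs in 1 member. In IgG1 replicate 1, 95 of 104 Cxcl13 UMIs came from 1 member. C1qa (3677 against 2.997 CPM), C1qc (1888 against 1.98) and C1qb (3339 against 7.18) had been used by the rule. Aif1 (IBA1, 529 against 1.35 CPM), the lectin gene Mgl2 (589 against 1.12), Tmem176a (860.4 against 1.38), Ccl12 (172 against 0.244) and the adhesion gene Negr1 (171 against 0.203) completed the 10.

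Summed over the lists, MHC class II and Cx3cr1 genes were at 46939 CPM against 4278 CPM in alveolar macrophages and chemokines at 9273 against 4591. The chemokine sum was 20464 CPM in ipilimumab replicate 2, 4566 CPM in IgG1 replicate 3 and 5907 to 10071 CPM in the other mice, so it was not above the alveolar mean in each of them. Complement summed to 10614 against 812 CPM, but most of that is the C1q chains, which the rule used. Lysosomal genes were at 13265 against 21240 CPM and the Spp1 and Trem2 list at 5592 against 15782 CPM. Other barcodes, picked by Ly6c2 (classical monocytes), Ace and Treml4 (nonclassical monocytes) or Flt3 (dendritic cells), had 6496, 6087 and 5788 CPM of lysosomal genes. They had 4133, 3547 and 32757.5 CPM of MHC class II and Cx3cr1 genes and 8660, 3551 and 2483 CPM of chemokines. The contrasts thus depend on the cells compared. The Ly6c2 barcodes also held 12114 CPM of T and NK cell markers. The protease gene Ctsd was at 448 ± 308 CPM in C1q macrophages and 5016 CPM in alveolar macrophages, the lipase gene Lpl at 207 and 2802, Spp1 (osteopontin) at 53.1 and 1529.7, the cholesterol exporter gene Abcg1 at 99.6 and 1631, and Cd9 at 622 and 3605 CPM. Summed over 18 alveolar markers the level was 236 CPM against 15964 CPM, and Ear2, Pparg and Il18 were the highest of them in C1q macrophages. Both kinds were picked by opposite limits on Atp6v0d2 and Chil3, so a gap in alveolar markers follows in part from that choice. Among transcription factor genes, Maf was at 153 against 3.24 CPM, while Pparg, which alveolar macrophages need, was at 62.4 against 249.6 CPM. Free RNA was estimated at 0.661% to 5.46% of the members' UMIs in the 6 mice.

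**Figure D2:**
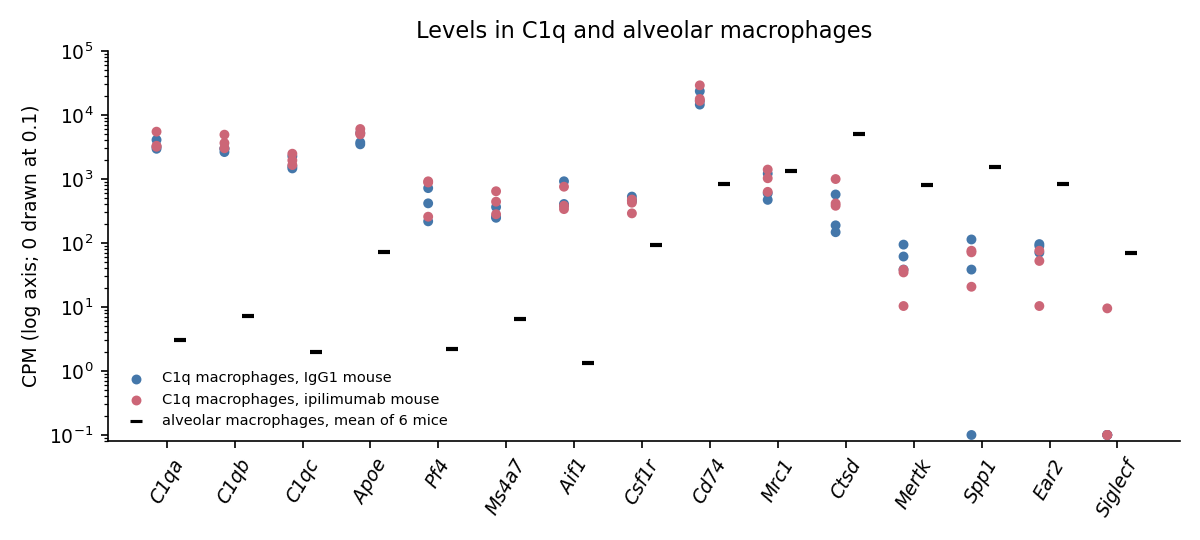
CPM on a log axis of 15 genes in the C1q macrophages of each mouse (points, blue for IgG1 and red for ipilimumab) and as the mean of 6 mice in alveolar macrophages (black dashes), with 0 drawn at 0.1. C1q, Pf4, Ms4a7, Aif1 and Cd74 lie far above the dashes in every mouse, while Ctsd, Mertk, Ear2 and Spp1 lie below them.

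Members differed widely among themselves. C1q UMIs per 10000 ranged from 2.53 to 253 over the 86 members, with a median of 89.7. The rule used the sum of the 3 chains, so how they go together is a description only: over the 69 members with at least 3000 UMIs, C1qa and C1qb per 10000 UMIs correlated with Pearson's r = 0.895 (Spearman's rho 0.891) and C1qa and C1qc with r = 0.847 (rho 0.894), a description over cells of 6 libraries that share depth and ambient RNA within a library. MHC class II ran from 0 to 1426 UMIs per 10000 with a median of 491 in these 69, and 8 of them had at most 5 H2-Aa UMIs while 61 had at least 10. C1q and MHC class II were related loosely (r = 0.497) and Apoe and MHC class II not visibly (r = -0.00611). Apoe was absent in 18 of the 69 and reached at least 100 UMIs in another 18.

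**Figure D3:**
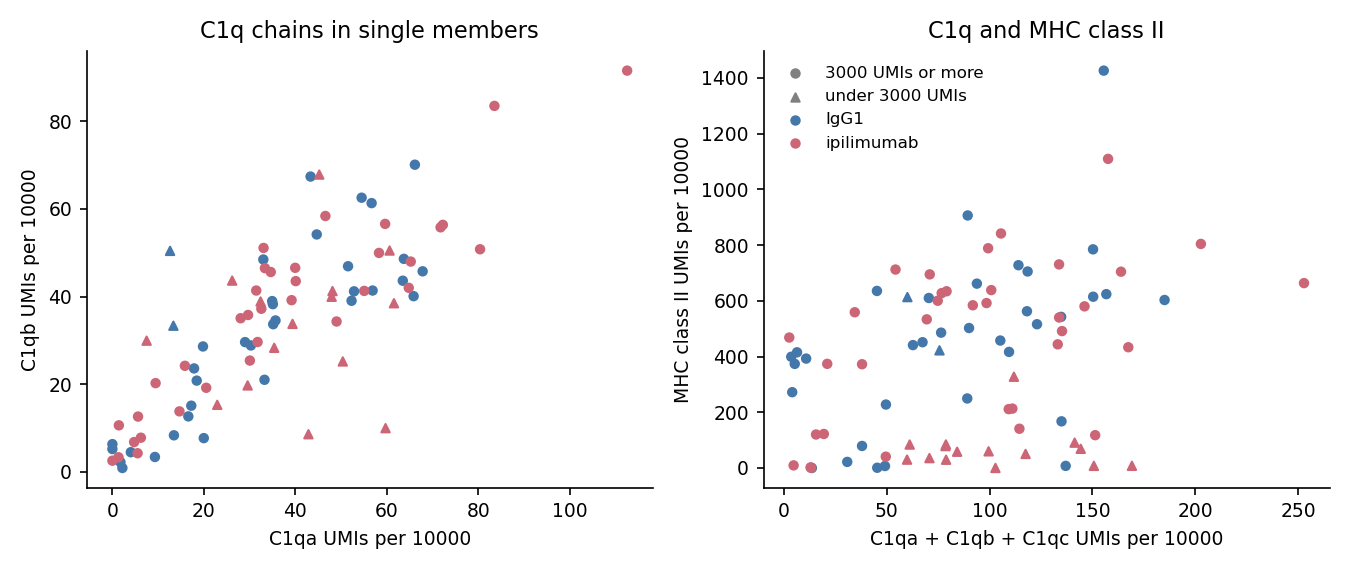
Left, C1qb against C1qa UMIs per 10000 in each C1q macrophage. Right, MHC class II against summed C1q UMIs per 10000. Blue is IgG1 and red is ipilimumab, and triangles mark the 17 members with fewer than 3000 UMIs. The 14 of these from ipilimumab replicate 1 lie low on the MHC class II axis at C1q values like those of the other members. Those from other mice lie at 327 to 613 MHC class II UMIs per 10000.

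Both described kinds of interstitial macrophage were sought by UMI limits. Members with at least 2 UMIs over Lyve1, Folr2, Cd163 and Cbr2 (called Folr2/Lyve1 cells) numbered 18, and members with a Cx3cr1 UMI and none of these 4 genes (Cx3cr1 cells) numbered 44, which left 24. Of the 18, 12 had Folr2, 2 had Lyve1 and 4 had neither and counted through Cd163 or Cbr2, and the 2 with Lyve1 were those richest in endothelial UMIs. In the sums, Folr2/Lyve1 cells had a median of 145 MHC class II UMIs per 10000 and Cx3cr1 cells 541. The first group had 6096 CPM of Apoe and 1283 CPM of Cxcl2, as means over mice, and the second 3700 and 4551 CPM. Folr2/Lyve1 cells were 1 of 14, 4 of 18 and 2 of 4 members in the IgG1 mice and 5 of 25, 1 of 6 and 5 of 19 in the ipilimumab mice, which gives 26.5% ± 21.7 and 21.0% ± 4.90 (SD, exact permutation p = 0.8). The groups overlapped. Cx3cr1 cells were 12 of 14 (85.7%, Wilson interval 60.1 to 96.0), 10 of 18 (55.6%, 33.7 to 75.4) and 2 of 4 (50%, 15 to 85) with IgG1. With ipilimumab they were 9 of 25 (36.0%, 20.2 to 55.5), 2 of 6 (33.3%, 9.68 to 70.0) and 9 of 19 (47.4%, 27.3 to 68.3). Every ipilimumab mouse was below every IgG1 mouse, with means of 63.8% ± 19.2 and 38.9% ± 7.45 (exact permutation p = 0.1, the smallest that 3 against 3 can give). At equal depth, with every member thinned to 1000 UMIs, the means were 17.5% and 16.2% (exact permutation p = 0.8). With at least 3000 UMIs, which removes shallow members but leaves depths unequal, they were 62.5% and 46.0% (exact permutation p = 0.5).

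A few members stood out and weigh on the sums. A member of ipilimumab replicate 2 held 804 UMIs of Ccl8 and 223 of Cxcl13 with 688 of C1q. A member of ipilimumab replicate 1 with no Apoe UMI held 321 UMIs of Cxcl10, 110 of Cxcl9 and 221 of Ifitm3, all induced by interferon. Another of that mouse had 838 UMIs over 12 fibroblast and mural markers, with 338 of Gsn and 125 of Dcn, together with 285 of Apoe. A member of IgG1 replicate 2 had 61 Plac8 and 45 Ly6c2 UMIs, as classical monocytes do, and 7 C1q UMIs. Members with at least 100 UMIs of dividing-cell genes were 2, in IgG1 replicates 2 and 3, and the one in IgG1 replicate 3 had 38758 of the 85204 UMIs of that mouse's 4 members. Such a limit favours deep members. Per 10000 UMIs these 2 had 75.6 and 81.0 UMIs of dividing-cell genes. The 17 members with fewer than 3000 UMIs had a median of 43.6 per 10000 and reached 158, in ipilimumab replicate 1.

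For the effect of treatment on expression, UMIs were summed over the members of each mouse and tested with the edgeR quasi-likelihood test. IgG1 replicate 3, with 4 members, was left out by the limit of 5 members per mouse, so 2 IgG1 mice stood against 3 ipilimumab mice. Of 3893 genes tested, 0 (0%) passed an adjusted p under 0.05 with an absolute log2 fold change over 0.3, and DESeq2 called 0 as well. At an unadjusted p under 0.05 there were 161 genes, 94 higher with ipilimumab (2.41% of those tested) and 67 lower (1.72%), and DESeq2 put 85 genes there. By CPM, all 3 ipilimumab mice were above both IgG1 mice for 332 genes (8.53%) and below both for 412 (10.6%). The median log2 fold change of all genes tested was 0.01. The edgeR adjusted p was 1 for each gene of this test, so the fold changes that follow (ipilimumab against IgG1, ± SE) describe these mice and none is a called change. Below, a gene of low p is one with an unadjusted p under 0.05.

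The 3 C1q chains had been used by the rule, so their levels are a description, and their fold changes depend on its limit. C1qa was at 3157, 2946 and 4061 CPM in the IgG1 mice and 3283, 5449 and 3168 CPM in the ipilimumab mice (log2 fold change 0.43 ± 0.28). C1qb was at 2998, 2909 and 2617 CPM in the IgG1 mice and 3619.6, 4892 and 2999 CPM in the ipilimumab mice (log2 fold change 0.43 ± 0.25). C1qc was at 1454, 1567 and 2253 CPM in the IgG1 mice and 1945, 2466 and 1642 CPM in the ipilimumab mice (log2 fold change 0.47 ± 0.27). Ipilimumab replicate 2, with 6 members, had the highest level of each chain. The other ipilimumab mice lay among the IgG1 mice for C1qa and C1qc, and for C1qb ipilimumab replicate 3 was level with IgG1 replicate 1. Apoe was at 3457, 5210.5 and 3709 CPM in the IgG1 mice and 5195, 5996 and 4955 CPM in the ipilimumab mice (log2 fold change 0.36 ± 0.23), and Ms4a7 was at 255, 362 and 246 CPM in the IgG1 mice and 279.9, 639.8 and 439.6 CPM in the ipilimumab mice (log2 fold change 0.58 ± 0.40). Pf4 was at 217, 414 and 716 CPM in the IgG1 mice and 256, 877 and 914 CPM in the ipilimumab mice (log2 fold change 1.14 ± 0.51), with groups that overlapped.

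Of the 11 complement genes tested (of 20 listed), 8 were higher with ipilimumab and 2 were of low p, both higher. They include the 3 C1q chains, all higher, and without these 5 of 8 were higher. With a C1q sum of at least 10, 6 of the 11 were higher and the median was 0.05 in place of 0.43. C3, the central component, was at 51.0, 61.2 and 258 CPM in the IgG1 mice and 332, 846 and 97.3 CPM in the ipilimumab mice (log2 fold change 2.90 ± 0.80), with 35.8% of its UMIs in a single member. Cfp (properdin), which stabilises the C3 convertase, was at 76.5, 132 and 352 CPM in the IgG1 mice and 189.8, 289 and 192 CPM in the ipilimumab mice (log2 fold change 1.09 ± 0.42). IgG1 replicate 3, which was not in the test, lay among the ipilimumab mice for C3 and above them for Cfp. Cr1l, a regulator that halts the cascade on cell surfaces, had the smallest p among the 3 that were lower (log2 fold change -0.44 ± 0.44). The receptor genes for the C3a and C5a fragments had log2 fold changes of -0.06 (C3ar1) and 0.71 (C5ar1).

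Chemokines held the most genes with a low unadjusted p of any list. Of 20 listed, 14 were tested, 13 were higher with ipilimumab, and 7 were of low p, all higher, beside 2.41% of all genes. The 7 were Ccl2, Ccl7, Ccl8, Ccl12, Cxcl1, Cxcl10 and Pf4. The list median was a log2 fold change of 0.84. Ccl2, Ccl7, Ccl12 and Ccl8 are ligands of CCR2 and related receptors that draw monocytes, and lie within one stretch of the plus strand of chromosome 11 between 82035571 and 82116799 (GRCm38). Ccl2 was at 440.1, 513 and 129 CPM in the IgG1 mice and 844, 908 and 546 CPM in the ipilimumab mice (log2 fold change 0.72 ± 0.33). All 3 ipilimumab mice were above all 3 IgG1 mice for Ccl2, also without the highest member of each mouse, and it was found in 21 of 36 IgG1 and 31 of 50 ipilimumab members. Ccl7 was at 95.7, 9.41 and 176 CPM in the IgG1 mice and 223, 165 and 333 CPM in the ipilimumab mice (log2 fold change 2.34 ± 0.66), where IgG1 replicate 3 lay between ipilimumab replicates. It was found in 6 of 36 IgG1 members and 22 of 50 ipilimumab members. Ccl12 was at 44.7, 14.1 and 340.4 CPM in the IgG1 mice and 42.7, 433 and 157 CPM in the ipilimumab mice (log2 fold change 2.84 ± 0.91), with overlap between the groups. All 42 Ccl12 UMIs of ipilimumab replicate 2 came from 1 member, and the gene was found in 9 of 36 IgG1 and 10 of 50 ipilimumab members. Ccl8 was at 0, 75.3 and 82.2 CPM in the IgG1 mice and 171, 8297 and 468 CPM in the ipilimumab mice (log2 fold change 6.24 ± 1.64). A single member of ipilimumab replicate 2 held 79.4% of all Ccl8 UMIs. With at least 3000 UMIs Ccl8 was at 0, 75.9 and 82.2 CPM with IgG1 and 68.5, 8297 and 470 CPM with ipilimumab. The groups then overlapped. The gene was found in 3 of 36 IgG1 members and 16 of 50 ipilimumab members, or 3 of 34 and 9 of 35 with at least 3000 UMIs. Of the 9 positive members of ipilimumab replicate 1, 7 had fewer than 3000 UMIs. Cells of a mouse are not independent, so these counts carry no test.

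The neutrophil chemokine Cxcl1 was at 351, 518 and 46.9 CPM in the IgG1 mice and 726, 1146 and 584 CPM in the ipilimumab mice (log2 fold change 0.95 ± 0.37). Single members held 107 of its 111 UMIs in ipilimumab replicate 2 and 146 of its 186 in ipilimumab replicate 3, and it was found in 13 of 36 IgG1 and 14 of 50 ipilimumab members. Without the highest member of each mouse it was at 207, 289 and 0 CPM with IgG1 and 478, 48.9 and 132 CPM with ipilimumab, and the groups overlapped. Cxcl2, the most abundant chemokine gene of these cells, was at 2596, 3488 and 904 CPM in the IgG1 mice and 3458, 4592 and 3216 CPM in the ipilimumab mice (log2 fold change 0.36 ± 0.25). Cxcl10, induced by interferon, was at 82.9, 84.7 and 46.9 CPM in the IgG1 mice and 1532, 10.3 and 126 CPM in the ipilimumab mice (log2 fold change 2.78 ± 1.17), with 80.5% of its UMIs in a single member of ipilimumab replicate 1, and was found in 11 of 36 IgG1 and 10 of 50 ipilimumab members. Cxcl13 was at 663, 32.9 and 235 CPM in the IgG1 mice and 342, 2332 and 97.3 CPM in the ipilimumab mice (log2 fold change 1.46 ± 1.15), and the groups overlapped. Ccl3 was the only chemokine tested that was lower with ipilimumab (log2 fold change -0.59 ± 0.60). The count of 7 depended on the members and mice used. It was 6 of 14 with at least 3000 UMIs, 5 with every mouse kept, 5 by DESeq2, 3 with members carrying UMIs of other lineages removed, and 3 of 13 without ipilimumab replicate 2. With no low-count filter it was 11 of 20, all higher, beside 398 of all 14120 genes of that fit that were of low p and higher. That fit takes in genes of few members, such as Cxcl9, whose 110 UMIs in ipilimumab replicate 1 came from 1 member. In IgG1 replicate 3 the levels of Ccl2, Cxcl1 and Cxcl2 were the lowest of the 6 mice, whereas those of Ccl7, Ccl12 and Pf4 lay among the ipilimumab mice.

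**Figure D4:**
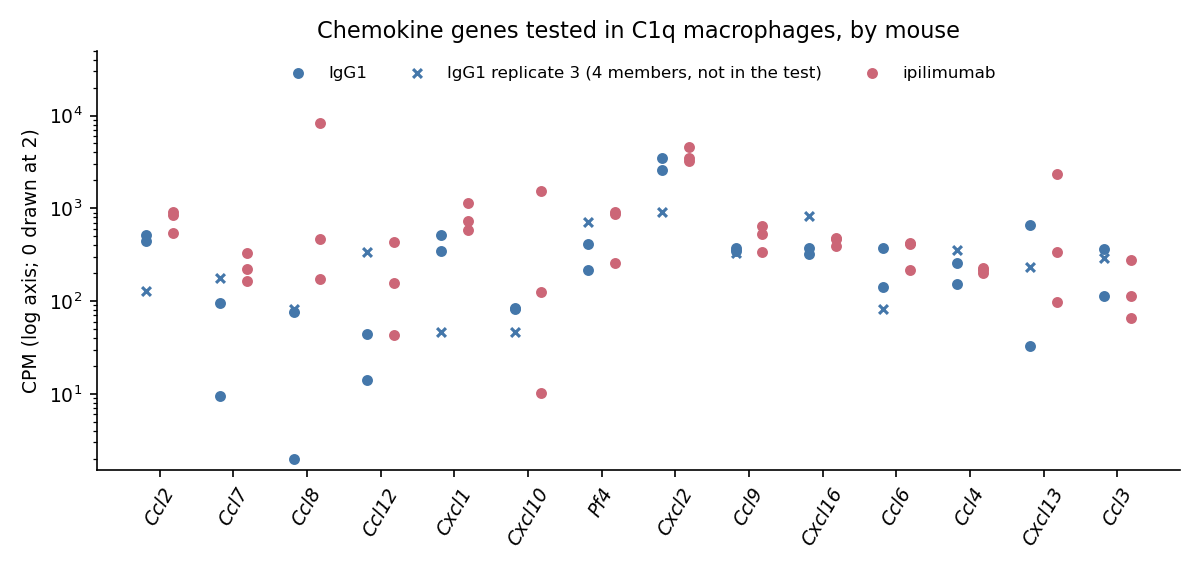
CPM on a log axis of the 14 chemokine genes tested in the C1q macrophages of each mouse (points), with 0 drawn at 2 and crosses for IgG1 replicate 3, which was not in the test. The ipilimumab mice lie above all IgG1 mice for Ccl2, and for Cxcl1, where 107 of 111 UMIs of ipilimumab replicate 2 came from 1 member, while Ccl12, Cxcl10, Pf4 and Cxcl13 overlap.

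Of 16 cytokine and growth factor genes tested, 12 were higher and 4 lower, with 1 of low p in each direction. Il1rn, the natural antagonist of the IL-1 receptor, was at 44.7, 89.4 and 0 CPM in the IgG1 mice and 166, 186 and 323 CPM in the ipilimumab mice (log2 fold change 1.77 ± 0.47). Tnf was at 147, 245 and 153 CPM in the IgG1 mice and 90.1, 41.3 and 44.0 CPM in the ipilimumab mice (log2 fold change -1.68 ± 0.45). For Il1rn all ipilimumab mice lay above all IgG1 mice, and for Tnf all lay below. Single members held 36 of the 52 Tnf UMIs of IgG1 replicate 2 and 11 of the 13 of IgG1 replicate 3. Without the highest member of each mouse, Tnf was at 125, 81.3 and 43.1 CPM with IgG1 and 64.2, 23.5 and 40.7 CPM with ipilimumab, so the groups overlapped, while Il1rn was at 21.4, 42.1 and 0 against 114, 129 and 208 CPM and they did not. Il1rn was found in 8 of 36 IgG1 and 19 of 50 ipilimumab members and Tnf in 22 of 36 and 19 of 50, or, with at least 3000 UMIs, in 8 of 34 and 19 of 35 for Il1rn and in 22 of 34 and 18 of 35 for Tnf. The other abundant members of the list were Il1b, at 899, 828 and 0 CPM in the IgG1 mice and 323, 1249 and 345 CPM in the ipilimumab mice (log2 fold change -0.41 ± 0.52), Tgfb1 (log2 fold change 0.11 ± 0.32) and Igf1 (log2 fold change 0.93 ± 0.57).

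Interferon-stimulated genes were sparse, and 8 of 22 were tested, 7 of them higher with ipilimumab and 2, Irf1 and Cxcl10, of low p (median 0.57). The lean depended on the members and mice used. Without members carrying UMIs of other lineages 3 of the 8 were higher, 0 were of low p and the median was -0.09. Without ipilimumab replicate 1 it was 4 of 8 with a median of 0.01. It was 6 of 8 with at least 3000 UMIs (median 0.66) and 7 of 8 without ipilimumab replicate 3 (median 1.09). With no low-count filter it was 19 of 21 (median 1.78), beside a median of 0.08 over all 14120 genes of that fit. Irf1 was at 25.5, 122 and 117 CPM in the IgG1 mice and 289, 165 and 261 CPM in the ipilimumab mice (log2 fold change 1.69 ± 0.53), and 56 of the 83 UMIs in ipilimumab replicate 3 and 43 of the 61 in ipilimumab replicate 1 came from 1 member each. The first is the member of 44991 UMIs with 310 endothelial UMIs, which the alternative without doublets removes. Without the highest member of each mouse the levels were 20.02, 91.5 and 129 CPM with IgG1 and 105, 90.7 and 98.7 CPM with ipilimumab, and the groups overlapped. The most abundant of the list were Ifitm3 (log2 fold change 1.10 ± 0.70), Ly6e (log2 fold change 0.01 ± 0.33) and Ifi27l2a (log2 fold change 0.55 ± 0.61), each with levels that overlapped. Ifngr1, a receptor chain for interferon gamma, was the one that was lower (log2 fold change -0.18 ± 0.36). The member with 321 Cxcl10 UMIs and the one with 56 Irf1 UMIs belong to different mice.

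MHC class II was high in every mouse, with no gene of low p. Cd74 was at 23403, 16479 and 14424 CPM in the IgG1 mice and 16485, 28813 and 17682 CPM in the ipilimumab mice (log2 fold change 0.13 ± 0.25). H2-Eb1 had a log2 fold change of 0.02 and H2-Aa of 0.15. Of the 13 genes tested in the MHC class II and Cx3cr1 list, 7 were higher and 6 lower, with a median of 0.02. This balance moved with the members and mice used: 1 of 13 was higher with a C1q sum of at least 10 (median -0.35) or without ipilimumab replicate 2 (-0.25), and 10 of 13 without IgG1 replicate 1 (0.26). Cd72 had the smallest p of those that were higher (log2 fold change 0.70 ± 0.42) and Cx3cr1 of those that were lower. Cx3cr1 was at 376, 249 and 634 CPM in the IgG1 mice and 275, 92.9 and 173 CPM in the ipilimumab mice (log2 fold change -0.71 ± 0.42), with overlap between the groups. In the Lyve1 and Folr2 list 9 of 20 genes had enough UMIs for the test and 8 were higher (median 0.69), with none of low p. Selenop (log2 fold change 0.55 ± 0.39), Mgl2 and Marcks (log2 fold change 0.56 ± 0.34) were the most abundant. Wfdc17 was at 313, 452 and 106 CPM in the IgG1 mice and 550.3, 464 and 757 CPM in the ipilimumab mice (log2 fold change 0.67 ± 0.33), with every ipilimumab mouse above every IgG1 mouse, and the one gene that was lower was Mgl2 (log2 fold change -0.25 ± 0.59). Of 18 tested genes of the tissue macrophage list, 10 were higher and none was of low p. Cd14 (log2 fold change -0.03 ± 0.24), Ctsc (log2 fold change -0.04 ± 0.28) and Mrc1 (log2 fold change 0.22 ± 0.38) led it by level, and Cd63 had the smallest p among those that were higher (log2 fold change 0.64 ± 0.35).

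CD86 and CD80, the ligands of CTLA4, were both expressed. Cd86 was at 1212, 1191 and 1056 CPM in the IgG1 mice and 778, 764 and 1115 CPM in the ipilimumab mice (log2 fold change -0.40 ± 0.27), and Cd80 was at 408, 118 and 153 CPM in the IgG1 mice and 47.4, 82.6 and 226 CPM in the ipilimumab mice (log2 fold change -1.02 ± 0.62). The levels overlapped for each. Cd274, which encodes PD-L1, was at 25.5, 47.1 and 46.9 CPM in the IgG1 mice and 90.1, 61.9 and 78.5 CPM in the ipilimumab mice (log2 fold change 1.10 ± 0.51), with every ipilimumab mouse above every IgG1 mouse at low counts. Havcr2 (TIM-3) followed them by level (log2 fold change -0.22 ± 0.58). Of the 10 checkpoint genes tested, 5 were higher and 5 lower, with none of low p. The Fc gamma receptors, which bind antibody such as IgG1, had 3 of 6 tested genes higher and a median of 0.02, and Fcer1g, their shared signalling chain, was at 1135, 1313 and 1268 CPM in the IgG1 mice and 1257, 1569 and 1281 CPM in the ipilimumab mice (log2 fold change 0.21 ± 0.26). The kinase gene Syk (log2 fold change -0.09 ± 0.29) and Fcgr3 (log2 fold change 0.19 ± 0.37) followed by level.

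Of 16 tested genes of the Spp1 and Trem2 list, 11 were higher and 2 were of low p, both higher, with a median of 0.26. At a C1q sum of at least 10 it was 8 of 16 with a median of 0.02 and 1 of low p. Without IgG1 replicate 1, which leaves 1 IgG1 mouse in the fit, it was 10 of 18 with a median of 0.08. Cd36, a scavenger receptor also counted among the efferocytosis genes, was at 274, 198 and 106 CPM in the IgG1 mice and 773, 258 and 788 CPM in the ipilimumab mice (log2 fold change 1.42 ± 0.44), with overlap between the groups. Timp2, an inhibitor of matrix proteases, was at 185, 348 and 340.4 CPM in the IgG1 mice and 469.6, 764 and 389 CPM in the ipilimumab mice (log2 fold change 1.04 ± 0.42), with all ipilimumab mice above all IgG1 mice. The most abundant were Lgals3 (log2 fold change 0.25 ± 0.27), Cd9 (log2 fold change -0.14 ± 0.30) and Fn1 (log2 fold change 0.46 ± 0.59), and Itgb5 (log2 fold change -0.57 ± 0.44) had the smallest p among those that were lower. Efferocytosis genes had 9 of 14 higher with a median of 0.07, and besides Cd36 the most abundant were Elmo1 (log2 fold change -0.33 ± 0.29) and the cholesterol exporter gene Abca1 (log2 fold change 0.10 ± 0.37). Of 23 lysosomal genes tested, 18 were higher and 5 lower, with a median of 0.37 and none of low p, beside 1989 of all 3893 genes (51.1%) that were higher. The lean depended on the members and mice used, with 13 of 23 higher and a median of 0.03 at a C1q sum of at least 10 and a median of 0.13 without ipilimumab replicate 2. Psap (log2 fold change 0.21 ± 0.29), Ctss (log2 fold change 0.23 ± 0.30) and Ctsb (log2 fold change 0.44 ± 0.27) led by level. Ctsz had the smallest p of those that were higher (log2 fold change 0.78 ± 0.37) and Npc1 of those that were lower (log2 fold change -0.37 ± 0.48). Among 8 iron and heme genes 5 were higher, with none of low p. The ferritin genes Fth1 (log2 fold change 0.11 ± 0.20) and Ftl1 (log2 fold change 0.25 ± 0.31) led by level, then Nrros (log2 fold change -0.38 ± 0.35), and Slc11a1, a metal transporter of phagosomes, had the smallest p of those that were higher (log2 fold change 0.64 ± 0.40).

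Of 14 macrophage transcription factor genes tested 10 were higher, with a median of 0.29, and Zeb2, the most abundant, was at 1729, 1676 and 1268 CPM in the IgG1 mice and 2068, 1796 and 1253 CPM in the ipilimumab mice (log2 fold change 0.05 ± 0.27). Cebpb followed it by level (log2 fold change 0.16 ± 0.37), and Irf8 had the smallest p of those that were higher (log2 fold change 0.84 ± 0.46). Of 18 immediate early and heat shock genes 14 were lower, with a median of -0.09. Without IgG1 replicate 2, which leaves 1 IgG1 mouse in the fit, it was 10 of 18 with a median of -0.03. Fosb was at 1161, 1106 and 528 CPM in the IgG1 mice and 797, 722 and 669 CPM in the ipilimumab mice (log2 fold change -0.59 ± 0.26), where IgG1 replicate 3 had the lowest level of all. Fosb was the one of low p, and DESeq2 put none there. Junb (log2 fold change 0.00 ± 0.22), Hspa8 (log2 fold change -0.03 ± 0.36) and Fos (log2 fold change -0.46 ± 0.29) were the most abundant, and Ier3 had the smallest p among the 4 that were higher (log2 fold change 0.36 ± 0.47). Dissociation of tissue is known to raise such genes, and their part in the other results was not tested. Cell division genes had 1 of 6 higher and a median of -0.52, but IgG1 replicate 2 holds a dividing member of 169 such UMIs. Without that mouse, which leaves 1 IgG1 mouse in the fit, 6 of 6 were higher and the median was 0.77. The list summed to 1063 CPM in ipilimumab replicate 1, or 475 CPM with at least 3000 UMIs, and to 389 and 386 CPM in IgG1 replicate 1. The list was led by level by Tubb5 (log2 fold change -0.43 ± 0.43), Hmgb2 (log2 fold change -0.49 ± 0.68) and Stmn1 (log2 fold change -0.55 ± 0.80), and Pcna was the one that was higher with all 5 mice (log2 fold change 0.44 ± 0.40). Stmn1 was at 19.1, 155 and 446 CPM in the IgG1 mice and 109, 0 and 53.4 CPM in the ipilimumab mice, and the groups overlapped. Of 5 senescence and p53 genes tested 3 were higher (median 0.01), and Cdkn1a, which encodes the cycle inhibitor p21, was at 389, 805 and 199.5 CPM in the IgG1 mice and 332, 526 and 688 CPM in the ipilimumab mice (log2 fold change -0.17 ± 0.39). Mdm2 (log2 fold change 0.01 ± 0.35) and Bax (log2 fold change 0.01 ± 0.38) followed by level, and Gdf15 had the smallest p of those that were higher (log2 fold change 0.67 ± 0.87). Cdkn2a, which encodes p16 and p19, had UMIs in 1 member.

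**Figure D5:**
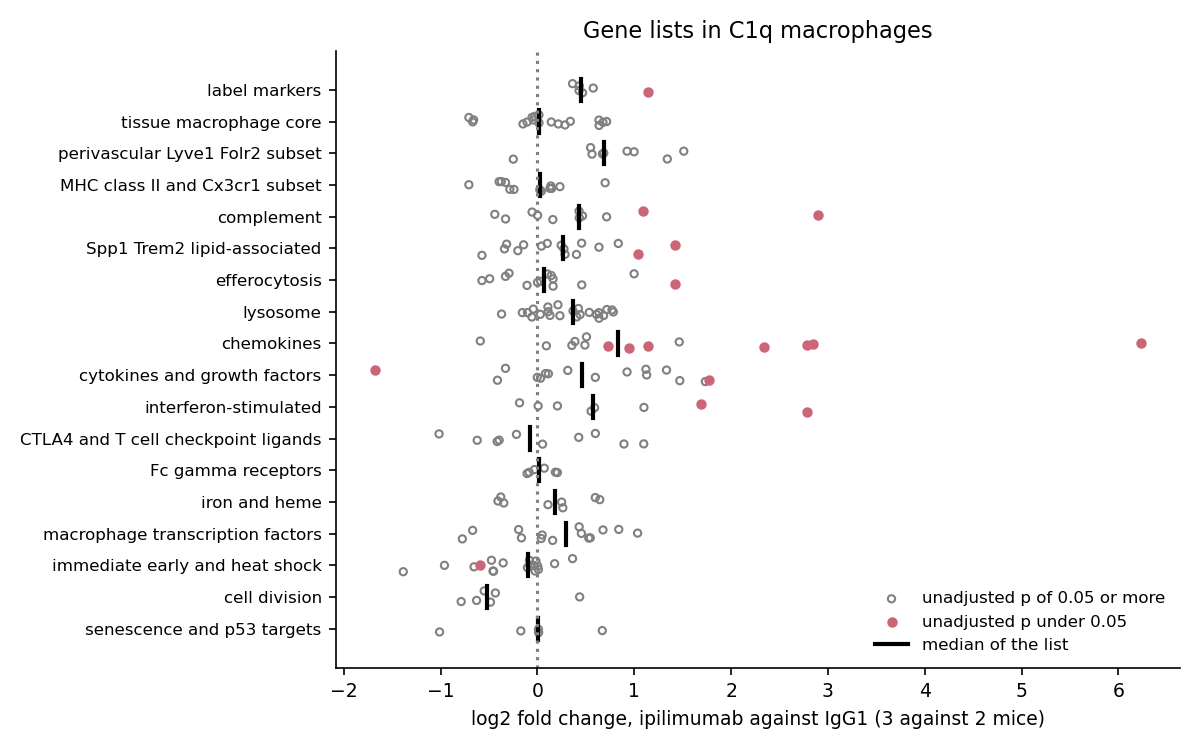
Log2 fold change (ipilimumab against IgG1, 3 against 2 mice) of each tested gene of 18 lists in C1q macrophages, where open points have an unadjusted p of 0.05 or more, red points one under 0.05, and black bars are list medians. Chemokines hold 7 red points, all to the right of 0, and no gene in any list passed the adjusted threshold.

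Of all genes, the 5 with the smallest p that were higher with ipilimumab were Iigp1, Ptgs2, Lap3, Ccl8 and Il1rn. Iigp1, an interferon-induced GTPase, was at 0, 4.71 and 0 CPM in the IgG1 mice and 104, 20.6 and 267 CPM in the ipilimumab mice, with UMIs in 6 members and 70.0% of them in 1 member of ipilimumab replicate 3, the one with 310 endothelial UMIs. Ptgs2, which encodes cyclooxygenase 2, was at 82.9, 51.8 and 1138 CPM in the IgG1 mice and 432, 206 and 192 CPM in the ipilimumab mice (log2 fold change 2.10 ± 0.50). It was highest of all in IgG1 replicate 3, where 97 UMIs came from 1 member, so with every mouse kept its log2 fold change was -0.52. That member had 8 C1q UMIs, no Apoe UMI, 19 UMIs each of Ccr7 and Timd4, and 31 UMIs over the dendritic cell markers. Lap3, a leucine aminopeptidase, was at 0, 0 and 35.2 CPM in the IgG1 mice and 56.9, 61.9 and 44.0 CPM in the ipilimumab mice, with 2 of 36 IgG1 and 22 of 50 ipilimumab members positive. The 5 that were lower were Klf10, Chn2, Tnf, Epb41 and Lsmem1. Klf10, a transcription factor gene induced by TGF-beta, was at 95.7, 174 and 70.4 CPM in the IgG1 mice and 33.2, 51.6 and 18.8 CPM in the ipilimumab mice (log2 fold change -2.10 ± 0.52), and Lsmem1 was at 351, 278 and 775 CPM in the IgG1 mice and 28.5, 103 and 132 CPM in the ipilimumab mice (log2 fold change -1.79 ± 0.50). In both, all 3 IgG1 mice lay above all ipilimumab mice. For Lsmem1 the 66 UMIs of IgG1 replicate 3 came from 1 member, without the highest member of each mouse the groups overlapped, and with at least 3000 UMIs it was found in 17 of 34 IgG1 and 18 of 35 ipilimumab members. Chn2 was at 351, 118 and 93.9 CPM in the IgG1 mice and 61.7, 61.9 and 15.7 CPM in the ipilimumab mice (log2 fold change -2.41 ± 0.62), and Epb41 at 185, 184 and 70.4 CPM in the IgG1 mice and 75.9, 51.6 and 69.1 CPM in the ipilimumab mice (log2 fold change -1.41 ± 0.38). Of 22 named genes compared without the highest member of each mouse, 13 had groups that did not overlap with all members. Of these, 6 did not overlap without that member either (Il1rn, Ccl2, Cd274, Lap3, Klf10 and Chn2) and 7 did (Irf1, Tnf, Ccl8, Cxcl1, Timp2, Wfdc17 and Lsmem1), while Ccl7 and Ptgs2 overlapped only with all members. These genes were named with their values known. Of all 3893 genes tested, 343 (8.81%) had groups of 3 that did not overlap with all members and 296 (7.6%) without the highest member, and 163 of the 343 (47.5%) did not overlap either way, a share like that of the named genes.

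Markers of other cell types were counted beside these values. The 12 fibroblast and mural markers summed to 4165 CPM in ipilimumab replicate 1 and to 141 to 364 CPM in the other mice, with Gsn the most abundant gene in every mouse. The 10 endothelial markers summed to 1027 CPM in ipilimumab replicate 3, 466 CPM in IgG1 replicate 2 and 46.9 to 218 CPM in the rest. T and NK cell markers were at 41.3 to 299 CPM, led by Il7r, with Cd3e, which the rule used, at 0 in every mouse. Neutrophil markers were at 19.1 to 188 CPM, with Ly6g at 0 in every mouse, and dendritic cell markers at 128 to 411 CPM. Classical monocyte markers were at 258 to 1953 CPM, led by Fn1 or Ccr2, and nonclassical monocyte markers at 144 to 433 CPM, led by Nr4a1. B and plasma cell markers were at 84.8 to 317 CPM, led by Ighm, and epithelial markers at 23.5 to 144 CPM. The part of these cells in the results was not tested, but without the members that carried at least 2 UMIs over 7 genes of other lineages the log2 fold change was 6.48 for Ccl8, 3.50 for C3, 1.74 for Il1rn, 1.06 for Irf1 and -1.25 for Tnf, and it was -0.57 for Ifitm3, -0.43 for Ifi27l2a and -0.13 for Ly6e, the other sign from that over all members.

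Within Cx3cr1 cells the test could use IgG1 replicates 1 and 2 and ipilimumab replicates 1 and 3, and 0 of 2173 genes were called (0%), with 92 of low p. DESeq2 called 1, Cd36 (adjusted p = 0.0261). With no low-count filter more genes passed, among them Cd36 (edgeR adjusted p = 0.00048), Fn1 and Lsmem1. Leaving out a mouse leaves 1 mouse in a group here. In these cells the log2 fold change was 2.26 for Cd36, 1.12 for Ccl2, 1.09 for Il1rn and -0.93 for Tnf. That of Cxcl1 was -0.99, the other sign from the one over all members. For Folr2/Lyve1 cells no IgG1 mouse reached 5 cells, and no test was made. A model with both macrophage kinds and a term for each mouse tested whether treatment acted differently on C1q than on alveolar macrophages. The model used 12 sums and so kept IgG1 replicate 3. Of 11254 genes 0 (0%) passed, with 441 of low p. Genes passed when any mouse was left out, and Cenpf passed with a C1q sum of at least 10 (edgeR adjusted p = 0.0433). The difference of the log2 fold changes (C1q minus alveolar macrophages) was 2.03 for Il1rn (edgeR adjusted p = 0.858), -1.63 for Tnf (0.858), 1.42 for Cd36 (0.858) and -1.86 for Lsmem1 (0.817).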

How the data were processed

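RNA of single cells from 6 lungs was measured by 10x Genomics 3' chemistry, 1 library per mouse. The deposited files hold raw UMI counts per gene and barcode that the authors made with Cell Ranger (7.0.0 in the submitters' processing notes) on mm10 (GRCm38), for every barcode and 32285 genes. The authors' later removal of ambient RNA, cell filters and cell names were not used here. Each library held 37666042 to 48612412 UMIs.

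Barcodes were kept and members chosen by the limits stated in the report, and the members and the gene lists were chosen with earlier results of these data known. Doublets were kept, and an alternative removed the 89 to 214 highest doublet scores of each library. Counts were summed per mouse, and a mouse needed 5 members. The model with alveolar macrophages used 12 sums and so kept IgG1 replicate 3, with its 4 members. edgeR 4.0.16 (quasi-likelihood test, TMM, filterByExpr) gave fold changes and Benjamini-Hochberg adjusted p, with DESeq2 1.42.0 as the alternative, under R 4.3.3. The edgeR step was tested on simulated data with 200 changed genes. Shares were compared with exact two-sided permutation tests over mice (SciPy 1.17.1). The mice of a group are separate animals, and 3 per group limit every test. Named genes were the label markers, the 3 most abundant genes and the smallest p in each direction of each list, the 10 highest genes by level and by ratio to alveolar macrophages, and the 5 smallest p in each direction. Other genes named were chosen after their values were seen, and some genes that the rule names are not reported here.

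Alternatives changed the C1q, UMI and mitochondrial limits, doublets, other lineages, depth by thinning, normalization, the low-count filter, ambient RNA, covariates and the mice used. Members of at least 3000 UMIs, the fit with every mouse kept and the levels of 22 named genes, and the order of the groups over all genes tested, without each mouse's highest member were added after the data were seen. Same-numbered IgG1 and ipilimumab mice had deviations that correlated at 0.112, 0.295 and -0.144 over 17541 genes, so the numbers were not taken as pairs.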

Additional observations from a re-analysis of the deposited data

How the results depend on the processing

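The share of C1q macrophages was 0.0261 to 0.0961 percentage points higher with ipilimumab under the limits and denominators tried, and -0.00208 to 0.187 when each mouse was left out in turn. The share of Folr2/Lyve1 cells among C1q macrophages differed by -15.1 to 6.31 points with a mouse left out, and by 7.51 points with members thinned to 1000 UMIs, which leaves none of the 7 IgG1 cells that counted at full depth. For UMIs and genes per C1q macrophage the difference of medians turned to 459.5 UMIs with a C1q sum of at least 10, to 889 with at least 2000 UMIs and to 953 with at least 3000, and ran from -5060 to 1164 with a mouse left out, the positive value being that without ipilimumab replicate 1. The 0 genes changed in C1q macrophages became 66 with no low-count filter (54 higher, 12 lower), among them Dcn, Col3a1, Plac8 and Ly6c2, each in 1 to 3 members, and also 8 of the 10 genes of smallest p (Iigp1, Ptgs2, Lap3, Ccl8, Il1rn, Klf10, Chn2 and Lsmem1) and Ccl7, Ccl12, Cxcl10, Cxcl13, C3 and Cd36. They became 1 with the replicate block and 1 with the alveolar macrophage share as covariate, Ccl8 in both (edgeR adjusted p = 0.0139 and 0.00148), and stayed at 0 with an ipilimumab mouse left out. Without IgG1 replicate 1, IgG1 replicate 2 alone stood for IgG1, and the log2 fold changes of Plac8 and Ly6c2 were -7.05 and -8.46. A single member of that mouse held 61 Plac8 and 45 Ly6c2 UMIs. The genes changed in Cx3cr1 cells numbered 1 by DESeq2 (Cd36), 17 with no low-count filter and 0 to 31 with a mouse left out, where a lone mouse of a group is assumed to vary like the other group. The treatment effect in C1q macrophages against alveolar macrophages was called for 1 gene with a C1q sum of at least 10 (Cenpf), 3 without other lineage UMIs (Cenpf, Top2a and Ube2c, all of dividing cells and all lower), 10 with no low-count filter and 9 to 30 with a mouse left out. The cause of these changes was not tested. Same-numbered mice are not known to be pairs, and the replicate block left the share difference at 0.0790 points (exact paired permutation test, p = 0.75, where 0.25 is the smallest possible) and could not be fitted in Cx3cr1 cells. Of 93 named genes, 49 had the other sign under at least 1 of 18 alternatives (146 of 1657 values). Of the 16 of low p, 1 did, but their p came from the same mice, so fewer sign changes among them follow in part from that choice. No alternative was run within Folr2/Lyve1 cells, which had too few mice. The mice held 4 to 25 members each, and how that number bears on the genes called is not reported here.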
